A study of Homo sapiens with 18 samples.

Results

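The response to Melittin (MEL) of K562 cells carrying the CALRins5 mutation was read from 6 of the 18 arrays of the series, 3 of cells exposed to MEL and 3 of untreated cells, chosen by the vector and treatment in the sample labels. K562 is a human chronic myeloid leukemia cell line. All 6 samples had been transduced with the retroviral vector LCALRins5IDN, which brings the CALRins5 form of calreticulin together with NGFR, the surface marker used to purify the transduced cells, on top of the calreticulin that K562 cells make themselves. MEL, the main toxin of bee venom and used by the authors to induce oxidative stress, was given at 5 μg/mL for 24 h. The sample protocol gives RNA collection directly after sorting for cells not said to be exposed and after the day of exposure for MEL, so the effect of MEL and that of time in culture cannot be told apart here. Cells of the same line with the CALRwt or the CALRdel52 vector, 3 MEL and 3 untreated arrays each, served for comparison. The cells were pools selected by NGFR, and it is not given whether the replicates were separate cultures for MEL. If they were not, the spread behind each p-value may be technical only.

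Calreticulin is a calcium-binding chaperone of the endoplasmic reticulum (ER). When unfolded proteins, oxidants or a lack of amino acids stress a cell, kinases phosphorylate eIF2α, and the factors ATF4 and CHOP then act on genes of amino acid supply and of adaptation to stress. The ER membrane is also where cells sense cholesterol: the INSIG proteins hold the SREBP factors there when sterols are plentiful, and SREBP released from the ER acts on the genes of cholesterol and fatty acid synthesis.

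The gene list with the largest share lower with MEL was cholesterol synthesis, and the promoters of 5 genes of sterol synthesis, sterol control and fatty acid synthesis that all fell are given here. Each sequence is the 250 bases before the start of the gene, from RefSeq on GRCh38.p14, read 5′ to 3′ on the strand of the gene, with the CCAAT box (CCAAT, or ATTGG on the other strand) in capitals.
INSIG1, chr7:155297628-155297877, plus strand: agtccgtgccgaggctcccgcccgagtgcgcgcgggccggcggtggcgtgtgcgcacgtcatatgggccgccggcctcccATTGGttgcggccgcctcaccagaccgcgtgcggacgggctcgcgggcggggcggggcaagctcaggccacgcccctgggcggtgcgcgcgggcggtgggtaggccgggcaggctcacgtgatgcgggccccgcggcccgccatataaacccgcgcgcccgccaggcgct
HMGCS1, chr5:43313413-43313662, minus strand: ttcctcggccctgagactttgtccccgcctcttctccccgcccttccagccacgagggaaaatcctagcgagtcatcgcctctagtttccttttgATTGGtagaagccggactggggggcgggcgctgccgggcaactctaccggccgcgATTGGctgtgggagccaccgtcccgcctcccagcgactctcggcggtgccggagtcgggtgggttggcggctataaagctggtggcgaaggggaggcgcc
MSMO1, chr4:165327419-165327668, plus strand: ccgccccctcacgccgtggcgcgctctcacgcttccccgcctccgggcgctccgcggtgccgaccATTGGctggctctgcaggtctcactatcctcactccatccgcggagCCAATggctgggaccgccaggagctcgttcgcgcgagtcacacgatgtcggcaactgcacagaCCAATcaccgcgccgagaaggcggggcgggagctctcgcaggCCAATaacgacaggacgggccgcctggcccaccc
FDPS, chr1:155308616-155308865, plus strand: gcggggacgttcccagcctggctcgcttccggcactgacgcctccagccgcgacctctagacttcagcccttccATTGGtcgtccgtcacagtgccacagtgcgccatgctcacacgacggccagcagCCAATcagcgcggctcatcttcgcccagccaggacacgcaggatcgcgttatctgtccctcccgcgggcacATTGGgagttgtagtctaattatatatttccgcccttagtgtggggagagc
SCD, chr10:100346983-100347232, plus strand: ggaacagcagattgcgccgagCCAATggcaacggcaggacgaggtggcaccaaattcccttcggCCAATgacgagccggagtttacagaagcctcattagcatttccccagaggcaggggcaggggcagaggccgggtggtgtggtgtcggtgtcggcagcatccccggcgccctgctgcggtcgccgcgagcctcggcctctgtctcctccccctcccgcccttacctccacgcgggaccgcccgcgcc
A CCAAT box was found on either strand in the promoters of 13 of the 14 sterol synthesis genes with a sequence in the table, against 37.0% of the 27305 genes of that table. The share was also high in lists without a common direction, with 21 of 24 ER chaperone promoters, 21 of 26 of mitosis genes and 15 of 21 of double-strand break repair genes. The sterol element searched as TCACNCCAC, on both strands, was in 1.09% of all promoters and in 0 of these 14. INSIG1 had 1 CCAAT box, HMGCS1 and SCD had 2 each, FDPS had 3 and MSMO1 had 4. The matches describe letters in these windows only.

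Expression was given as log2 values that run from 1.70 to 14.5 over the 6 arrays. A gene was taken as called when its brightest probe set had a Benjamini-Hochberg adjusted p under 0.05 in limma, a linear model whose error estimate borrows across probe sets, fitted to the 6 groups of the 18 arrays. MEL replicate 1 stood apart. The 3' minus 5' signal of GAPDH, a measure that grows with RNA degradation, was 0.31 to 0.37 in the untreated arrays, 0.45 to 0.53 in MEL replicates 2 and 3 and 1.33 in MEL replicate 1 on the log2 scale. For ACTB it was 0.76 to 0.89, 1.07 to 1.23 and 2.82. The highest values among the other 8 MEL arrays of the series, those of CALRins5 included, were 0.70 for GAPDH and 1.55 for ACTB. Results are therefore also given without this array, and the part of RNA quality in them was not tested. The labelled cell type was checked with 8 measured K562 markers, whose mean level was 9.83 to 9.92 in the 6 arrays, with the groups overlapping. Among them ABL1 was called higher (0.52, adjusted p = 0.00143) and GATA1 lower (−0.36, adjusted p = 0.0128), the latter not without MEL replicate 1. Of the 29 measured markers of lymphoid, monocytic and fibroblast or epithelial cells 1 was called, LYZ (0.57, adjusted p = 0.0234, and 0.154 without MEL replicate 1). No pair of arrays held identical values.

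In CALRins5 cells 2301 of 19775 genes changed with MEL, 956 higher (4.83% of all genes) and 1345 lower (6.8%). By probe sets these were 5512 DEGs (10.1% of 54675), 2119 higher (3.88%) and 3393 lower (6.21%), with a median absolute log2 fold change of 0.49. Most changes were small, since 30 genes rose and 33 fell by more than 1 on the log2 scale. Without MEL replicate 1 there were 1204 called genes, 463 higher (2.34%) and 741 lower (3.75%), of which 1178 were among the 2301. None of the 2301 changed sign. This array held the largest change of the 3 MEL arrays for 64.6% of the called genes. By probe sets, the number of DEGs was 2737 without MEL replicate 1, 3549 without untreated replicate 2 and 3209 without untreated replicate 3.

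Cholesterol synthesis was lower at most of its steps. Of 16 measured enzymes 12 fell with MEL and none rose, and their median log2 fold change was −0.60 against 0.03 for all genes. The mean level of the list was 8.35, 8.35 and 8.42 in the untreated arrays and 7.61, 7.67 and 7.72 in the MEL arrays, so the groups did not overlap. Without MEL replicate 1, 11 enzymes were called, and TM7SF2 was not (adjusted p = 0.129). With the GAPDH difference of each array as a covariate 9 were called. HMGCS1, which makes the HMG-CoA that enters the pathway, had levels of 7.86, 7.85 and 8.07 untreated and 6.55, 6.14 and 6.47 with MEL. Its log2 level fell by 1.54 (2.91-fold lower, standard error 0.11, limma adjusted p = 2.21e-07). DHCR7, the enzyme of the last step to cholesterol, had levels of 8.24, 8.35 and 8.30 untreated and 6.95, 6.89 and 6.99 with MEL, and fell by 1.35 (adjusted p = 3.6e-08). For both enzymes every MEL array lay more than 1 log2 unit below every untreated array. Among the genes of early steps, ACAT2, which joins acetyl-CoA units, fell by 1.25, FDPS, which makes farnesyl diphosphate, fell by 1.24, and IDI1, the isopentenyl diphosphate isomerase, fell by 1.03. Among the genes of late steps MSMO1 fell by 1.10, NSDHL fell by 0.77, EBP fell by 0.60, SC5D fell by 0.45, and the epoxidase SQLE and the cyclase LSS fell by 0.45 and 0.42. The 4 members not called were MVD (−0.46, adjusted p = 0.143), HSD17B7 (−0.11), MVK (−0.07) and PMVK (0.10), and MVK and PMVK catalyse neighbouring phosphorylation steps. A dimmer MVK probe set was called lower (−1.03, adjusted p = 0.00367, and 0.0241 without MEL replicate 1), while the remaining MVK probe sets were not called.

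Among 16 measured genes of sterol control and transport 6 fell and none rose. INSIG1 had the lowest adjusted p of the named genes. Its levels were 8.91, 9.22 and 9.08 untreated and 7.32, 7.26 and 7.13 with MEL. Its log2 level fell by 1.83 (3.56-fold lower, standard error 0.11, adjusted p = 2.87e-08), and its 3 probe sets were all called lower. STARD4, a carrier of cholesterol between membranes, had levels of 8.89, 9.05 and 8.99 untreated and 7.12, 7.50 and 7.34 with MEL, and fell by 1.66 (adjusted p = 3.34e-08). SREBF1, which encodes a SREBP factor, fell by 0.78 (adjusted p = 0.000481), MYLIP, a ubiquitin ligase for the LDL receptor, fell by 0.58, and TMEM97 fell by 0.55. INSIG2 fell by 0.53 and was not called without MEL replicate 1.

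Fatty acid synthesis was lower too, with 9 of 13 measured genes called, all of them lower (8 without MEL replicate 1), and a median of −0.54. The desaturase SCD, which makes monounsaturated fatty acids, had levels of 11.43, 11.30 and 11.24 untreated and 10.07, 10.24 and 10.05 with MEL. It fell by 1.20 (2.30-fold lower, standard error 0.10, adjusted p = 8.58e-07), and its 4 probe sets were all called lower. The elongase ELOVL6 fell by 0.85, the fatty acid synthase FASN fell by 0.80, and ACLY, which supplies cytosolic acetyl-CoA, fell by 0.77. ACSS2, ACACA and ME1 fell by 0.72, 0.59 and 0.54.

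**Figure D1:**
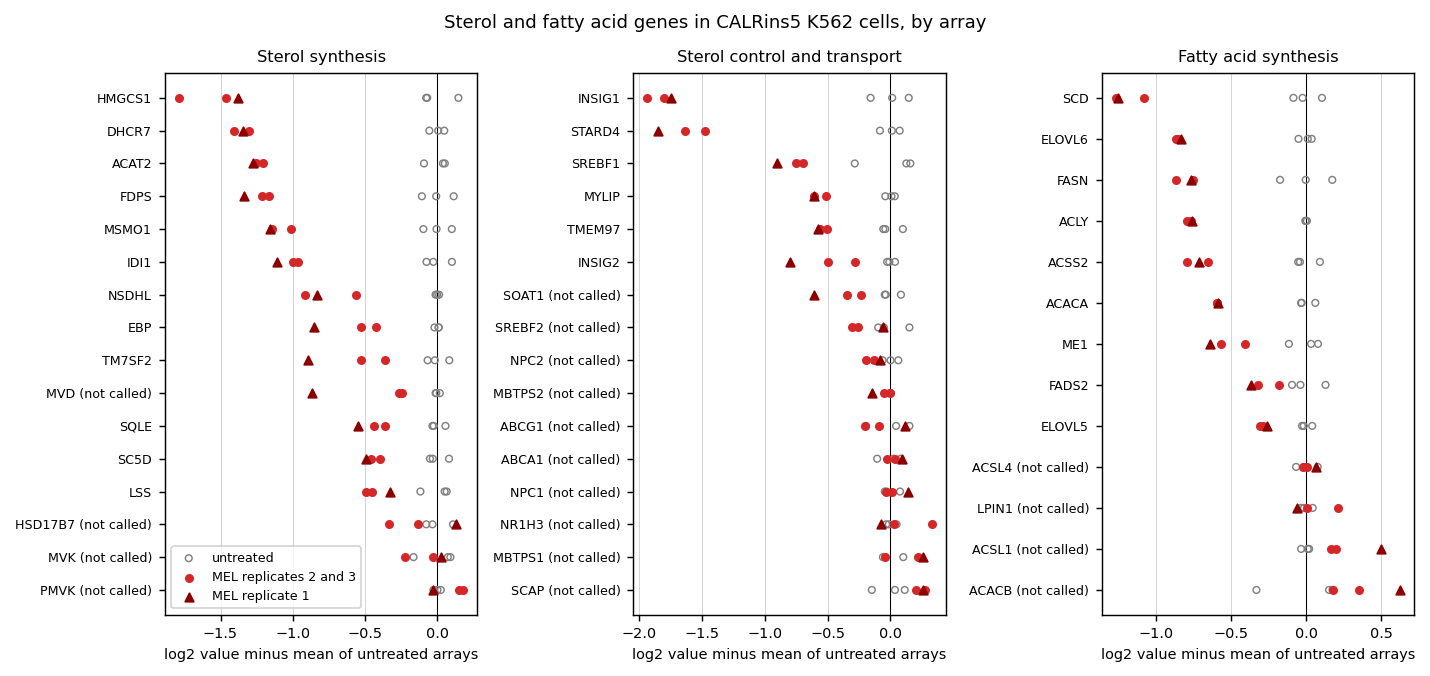
Level of each measured gene of sterol synthesis, sterol control and transport and fatty acid synthesis in each CALRins5 array, as the log2 value minus the mean of the 3 untreated arrays (x axis). Open circles are untreated arrays, filled circles MEL replicates 2 and 3 and triangles MEL replicate 1. For INSIG1, STARD4, HMGCS1, DHCR7 and SCD all 3 MEL arrays lie below the untreated arrays, while MVK and PMVK overlap.

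Genes of fatty acid oxidation and lipid droplets did not fall with them. Of 24 measured, 7 rose and 2 fell, with a median of 0.04, and the counts were 7 and 0 without MEL replicate 1 and 4 and 0 with the GAPDH covariate. CPT1A, which passes long-chain fatty acids to the mitochondrion, had levels of 6.98, 6.97 and 6.93 untreated and 8.84, 8.20 and 8.59 with MEL. It rose by 1.58 (3.00-fold higher, standard error 0.13, adjusted p = 1.08e-06). PLIN2, a coat protein of lipid droplets, had levels of 9.80, 9.68 and 9.76 untreated and 11.27, 10.89 and 11.04 with MEL, a rise of 1.32 (adjusted p = 9.69e-08). Both genes were separated between the groups by more than 1 log2 unit and had their highest value in MEL replicate 1. SLC25A20, the carnitine carrier that acts after CPT1A, rose by 0.50, and DGAT2, an enzyme of triglyceride synthesis, rose by 0.44.

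The targets of ATF4 and CHOP were the list with most genes higher, 16 of 34 (none lower), with a median of 0.30. The mean level of the list was 9.77, 9.68 and 9.68 untreated and 10.00, 9.99 and 10.01 with MEL. Without MEL replicate 1 it had 11 genes called, all higher, and with the GAPDH difference of each array as a covariate it had 9. When all probe sets of a gene were averaged, 9 members were higher and 2 lower. STC2, a secreted glycoprotein hormone, had levels of 7.80, 7.57 and 7.57 untreated and 9.12, 8.85 and 8.92 with MEL. It rose by 1.31 (2.49-fold higher, standard error 0.11, adjusted p = 7.45e-07). ATF3, a stress-induced transcription factor, had levels of 10.19, 9.99 and 9.98 untreated and 10.73, 10.61 and 10.73 with MEL, a rise of 0.64 (adjusted p = 7.56e-05) that 1 of its 3 probe sets showed. SLC3A2, the heavy chain of amino acid carriers, had levels of 10.22, 10.16 and 10.24 untreated and 10.66, 10.84 and 10.94 with MEL. It rose by 0.61 (adjusted p = 0.000222). NUPR1, a small stress protein of chromatin, rose by 0.58. Further called members were the amino acid carriers SLC1A4, SLC7A1 and SLC7A5, the serine synthesis enzymes PHGDH, PSAT1 and PSPH, and CHAC1, which degrades glutathione. Members not called included ASNS, TRIB3, DDIT4 and SESN2.

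Promoters of 2 called members are shown because they hold the CCAAT-enhancer binding protein and ATF response element, searched as TGATGNAA on both strands (in capitals), which was in 5 of the 25 promoters of the list in the table and in 3.89% of all promoters. In lists without a common rise the element was in 3 of 14 promoters of cytosolic tRNA synthetases and in 2 of 12 of the BCL2 family. Of the 13 promoters of called ATF4 and CHOP targets 3 held it. CEBPG encodes a partner of ATF4. The windows are again the 250 bases before the gene start.
CEBPG, chr19:33373863-33374112, plus strand: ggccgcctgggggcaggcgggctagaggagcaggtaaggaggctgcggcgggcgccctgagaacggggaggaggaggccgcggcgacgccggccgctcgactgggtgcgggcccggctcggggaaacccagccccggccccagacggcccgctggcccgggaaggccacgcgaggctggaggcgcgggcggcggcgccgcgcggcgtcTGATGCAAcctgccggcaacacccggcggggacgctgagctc
CHAC1, chr15:40953221-40953470, plus strand: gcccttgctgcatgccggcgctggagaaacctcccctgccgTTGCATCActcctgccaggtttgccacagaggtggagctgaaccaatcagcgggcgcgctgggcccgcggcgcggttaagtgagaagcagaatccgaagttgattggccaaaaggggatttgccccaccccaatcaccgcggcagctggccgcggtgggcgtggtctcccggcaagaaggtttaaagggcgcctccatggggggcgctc
The other promoters of the list with a match were those of ATF3 (called) and of ASNS and SLC1A5 (not called).

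The upstream genes of the stress response moved little at the RNA level. Of 13 stress sensors and mediators 3 rose and 2 fell, and without MEL replicate 1 none was called higher and 1 lower. With the GAPDH covariate none was called. ERN1, which encodes the sensor IRE1, rose by 0.45 (adjusted p = 0.0156, 1 of 3 probe sets with that sign), PPP1R15B rose by 0.38, and PPP1R15A, which encodes the eIF2α phosphatase subunit GADD34, rose by 0.29 (adjusted p = 0.0275). None of these 3 was called without MEL replicate 1. EIF2S1, which encodes eIF2α itself, fell by 0.33 (adjusted p = 0.00526), and the kinase gene EIF2AK4 fell by 0.41. The other EIF2S1 probe sets had the opposite sign (0.12 and 0.06) and were not called. ATF4 had a difference of 0.07 (adjusted p = 0.655), XBP1 of 0.16 (0.33, with a dimmer probe set called at 0.67) and ATF6 of 0.24 (0.0582). EIF2AK3, which encodes the sensor PERK, had a difference of 0.06 (adjusted p = 0.8), and −0.034 without MEL replicate 1. DDIT3, which encodes CHOP, had levels of 9.51, 9.49 and 9.40 untreated and 9.42, 9.28 and 9.34 with MEL, which overlapped (−0.12, adjusted p = 0.408).

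ER chaperones and folding enzymes showed no common direction, with 3 of 27 higher and 2 lower. CALR was read best by a probe set that may also bind other transcripts and that does not tell the mutated from the wt form. Its levels were 6.17, 6.19 and 6.28 untreated and 6.65, 6.53 and 6.64 with MEL, a rise of 0.39 (standard error 0.11, adjusted p = 0.0281, and 0.105 without MEL replicate 1). The other CALR probe sets were dim, with means of 3.85 and 3.48 over the 18 arrays, and were not called (adjusted p = 0.0568 and 0.644). Whether any of them reads the transcript of the vector was not tested. MANF, a secreted ER stress protein, rose by 0.49, while DNAJB11, a partner of the chaperone GRP78, fell by 0.40 and ERO1B, an ER oxidase, fell by 0.51. HSPA5, which encodes GRP78, had a difference of 0.20 (adjusted p = 0.203), while its dimmer probe set rose by 0.51 (adjusted p = 0.00456, and 0.0348 without MEL replicate 1), and DNAJB9, an ER co-chaperone, of 0.09 (0.579). Of 18 genes of ER-associated degradation 2 rose and 2 fell, of 30 COPII and COPI coat and cargo genes 1 rose and 3 fell, and of 29 genes of ER entry and glycosylation none was called. Among 17 genes of calcium stores and entry STIM1 and MCU rose by 0.38 each, and among 17 cytosolic tRNA synthetases YARS1 rose and HARS1 fell. Counts of 1 to 3 in these lists are near those from the shares of all genes (4.83% higher and 6.8% lower). Without MEL replicate 1 only MANF, MCU, DNAJB11, ERO1B, DERL1, SAR1B and HARS1 of these lists were called.

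**Figure D2:**
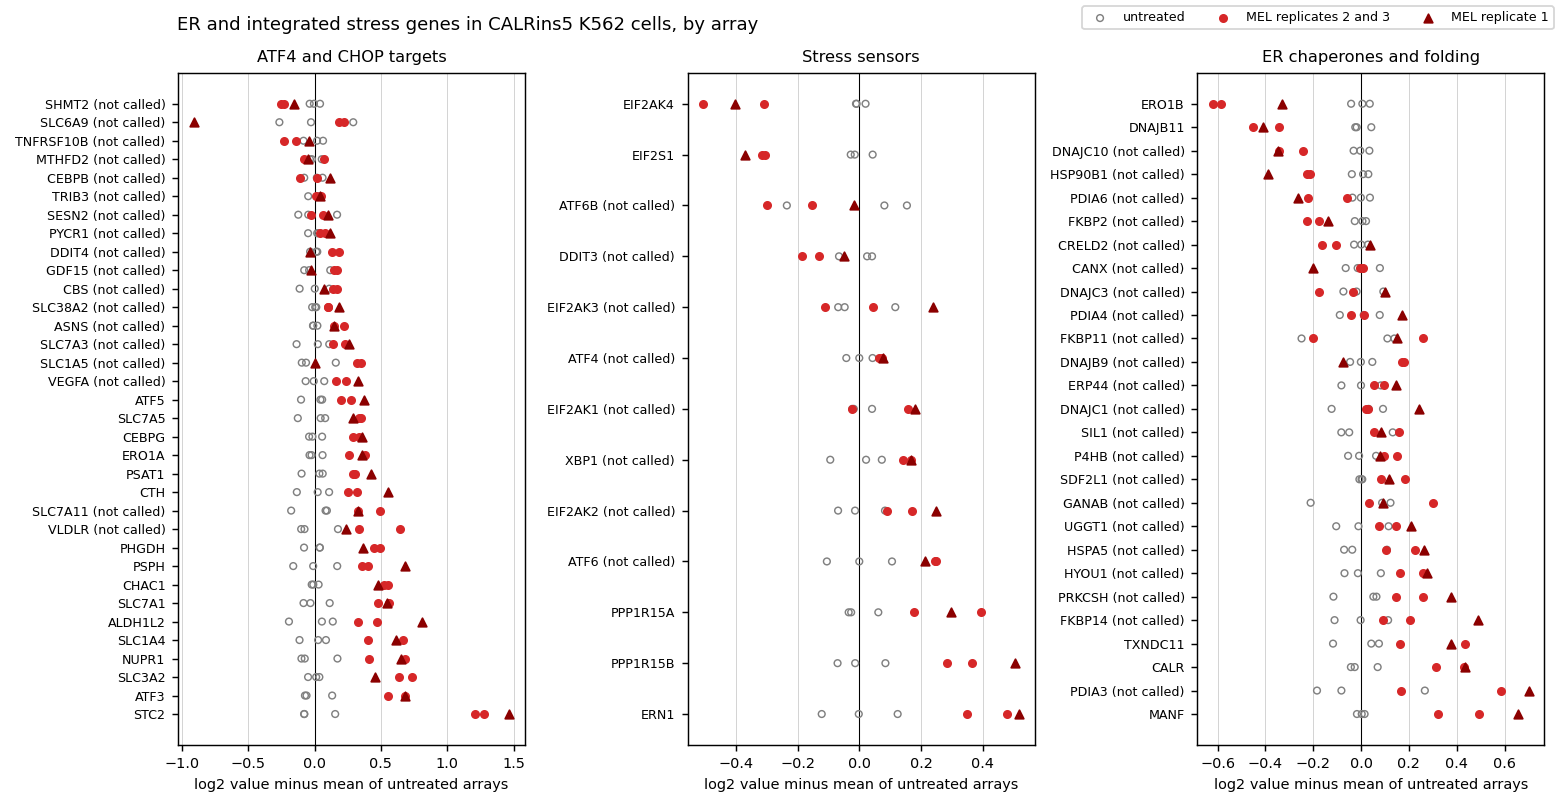
Level of each measured ATF4 and CHOP target, stress sensor and ER chaperone gene in each CALRins5 array, as the log2 value minus the mean of the 3 untreated arrays (x axis), with open circles for untreated arrays, filled circles for MEL replicates 2 and 3 and triangles for MEL replicate 1. STC2 stands about 1.31 above the untreated mean, and most chaperones, ATF4 and DDIT3 were not called.

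Most of the measured cytosolic heat shock genes went down, while HSPA1A, HSPA1B, HSPA8, HSF2 and TCP1 had no probe set of their own. Of 15 measured 9 fell and none rose (7 without MEL replicate 1 and 4 with the GAPDH covariate), with a median of −0.39, and the mean level of the list was 10.54, 10.51 and 10.53 untreated and 10.17, 10.23 and 10.26 with MEL. HSPH1, an exchange factor of HSP70, had levels of 9.31, 9.29 and 9.44 untreated and 8.66, 8.80 and 8.77 with MEL, and fell by 0.61 (adjusted p = 0.00214). HSP90AA1, a cytosolic HSP90, fell by 0.51, DNAJA1, a partner of HSP70, fell by 0.54 and CCT5, a subunit of the chaperonin, fell by 0.48. Of 27 proteasome subunits 8 fell and none rose, and 25 had a negative sign. PSMC6 had the largest fall among them, by 0.81 (adjusted p = 0.000299), and PSMA1 and PSMC1 fell by 0.58 and 0.57.

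Mitochondrial genes were lower as well. Of 28 subunits of the mitochondrial ribosome 14 fell and none rose (9 without MEL replicate 1 and 7 with the GAPDH covariate), 27 had a negative sign and the median was −0.30. MRPL39, of its large subunit, had levels of 10.33, 10.42 and 10.49 untreated and 9.49, 9.64 and 9.63 with MEL, and fell by 0.82 (standard error 0.08, adjusted p = 5.51e-06). MRPS30 fell by 0.78 and MRPS15 fell by 0.68. Of 31 subunits of the respiratory chain 6 fell and none rose, among them the complex I genes NDUFA9 (it fell by 0.51) and NDUFS1 (it fell by 0.47). By contrast, 1 of 22 cytosolic ribosomal proteins was called, RPS9, which fell by 0.27 and was not called without MEL replicate 1. In ribosome biogenesis 6 of 22 genes fell and 2 rose, with NOB1 the lowest (it fell by 0.69), and without MEL replicate 1 NOB1 and POLR1B were called, both lower.

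Among genes of the response to oxidants, few antioxidant enzymes were called. Of 20 antioxidant enzymes 2 rose and 1 fell (10.0% and 5.0%), near the shares of all genes (4.83% and 6.8%). GPX8, a peroxidase of the ER, had levels of 5.83, 5.86 and 6.01 untreated and 6.92, 6.61 and 6.69 with MEL, a rise of 0.84 (adjusted p = 7.57e-05). SOD1, the cytosolic superoxide dismutase, had levels of 12.60, 12.69 and 12.66 untreated and 12.20, 12.31 and 12.24 with MEL, and fell by 0.40 (adjusted p = 0.00418). SOD2 had a difference of −0.22 (adjusted p = 0.282), GSR of −0.33 (0.11) and OXR1 of −0.33 (0.186). Another of the 5 OXR1 probe sets was called lower (−0.79, adjusted p = 0.0174, and 0.0765 without MEL replicate 1). Of 18 targets of NRF2, the factor of the antioxidant response, 4 rose and 1 fell (22.2% and 5.56%, against 4.83% and 6.8% of all genes). Without MEL replicate 1, 4 were called higher (2.34% of all genes were), but only GCLM with the GAPDH covariate. The 4 were GCLM, of glutathione synthesis (0.58), the heme carrier SLC48A1 (0.51), the autophagy receptor SQSTM1 (0.47) and the quinone reductase NQO1 (0.40). None of 11 metallothionein and zinc genes was called.

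In the list of glycolysis and targets of hypoxia-inducible factors 3 genes rose and 6 of 32 fell. EPAS1, which encodes HIF2α, had levels of 9.87, 9.71 and 9.60 untreated and 11.07, 10.85 and 10.88 with MEL, a rise of 1.21 (adjusted p = 3.29e-06). EGLN3, an oxygen-dependent prolyl hydroxylase, had levels of 6.26, 6.18 and 6.42 untreated and 5.42, 4.95 and 5.41 with MEL, and fell by 1.03 (adjusted p = 0.000153). The glycolytic enzyme ALDOC fell by 1.10, whereas the glucose carrier SLC2A1 rose by 0.64.

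The largest change of all called genes was in an immediate early gene. FOS had levels of 7.04, 6.76 and 6.74 untreated and 4.80, 4.52 and 4.76 with MEL, and fell by 2.16 (4.46-fold lower, standard error 0.17, adjusted p = 6.04e-07). EGR1 had levels of 9.21, 8.94 and 8.46 untreated and 6.93, 7.39 and 7.30 with MEL, and fell by 1.67 (adjusted p = 6.21e-05). In both the lowest untreated array lay more than 1 log2 unit above the highest MEL array. JUNB and IER2 fell by 0.55 and 0.49, and 2 of the 20 members rose. Among 15 genes of JAK2 and STAT5 signaling 4 fell and none rose, namely ID1 (−0.62), STAT3 (−0.57), STAT5A (−0.39) and SOCS2 (−0.33). In this list 3 genes were called lower without MEL replicate 1, 1 with the GAPDH covariate and 0 with the ACTB covariate. JAK2 itself had a difference of −0.41 (adjusted p = 0.107), with MEL replicate 1 the lowest array at 6.83. STAT5B had a difference of 0.28 (adjusted p = 0.0519), and 1 of its other probe sets was called lower. NGFR, the selection marker, had a difference of 0.14 (adjusted p = 0.656), which turned to −0.056 with the GAPDH covariate. Its probe set was dim, with a mean of 3.55 over the 18 arrays, while the medians of the 6 CALRins5 arrays were 4.57 to 4.63. Whether it reads the marker carried by the vector was not tested. Of 17 ERK genes EPHA4 rose and SPRED1, an inhibitor of the pathway, fell by 0.66, and of 16 NF-kB genes TNFAIP3 rose and NFKB2 and NFKBIE fell. Counts of 1 or 2 in lists this short are near those that the shares of all genes give (4.83% higher and 6.8% lower), and without MEL replicate 1 only SPRED1 and NFKB2 were called. The 2 immediate early genes that rose and SOCS2 were not called without it either.

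Among the genes with the largest changes outside these lists, the calcium-binding protein CALB1 rose by 1.64 (adjusted p = 1.44e-07), the growth factor IGF1 by 1.61, the drug-metabolising enzyme CYP3A5 by 1.50 and the collagen chain COL6A3 by 1.26. The sorting receptor SORCS1 rose by 1.41, PPP2R2D, a regulatory subunit of the phosphatase PP2A, by 1.39 (with the opposite sign in its other probe set), and the long noncoding RNAs LINC00656 and LINC01133 by 1.45 and 1.35. IGF1 had levels of 5.64, 5.69 and 5.54 untreated and 7.47, 6.99 and 7.23 with MEL. The lymphocyte activation antigen CD69 had levels of 10.45, 10.46 and 10.46 untreated and 9.03, 9.31 and 8.99 with MEL, and fell by 1.34. BBS5 and INTU, which act in the primary cilium, fell by 1.55 and 1.36, and the phospholipase C gene PLCD1 fell by 1.34. All of the 12 genes with the largest rises and the 12 with the largest falls were also called without MEL replicate 1.

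The cell cycle and repair lists were mixed. Of 33 genes of DNA replication 8 fell (24.2%, against 6.8% of all genes) and 1 rose (3.03%, against 4.83%). PRIM1, the small primase subunit, was lowest (it fell by 0.75, adjusted p = 6.59e-05). Without MEL replicate 1, 6 replication genes were called lower, and 3 with the GAPDH covariate. Of 34 genes of mitosis 5 rose (14.7%), among them PLK1 (0.64) and CDC20 (0.50), and 2 fell (5.88%), CCNB1 (−0.61) and CENPA (−0.47). CDKN1A, which encodes the inhibitor p21, had levels of 8.18, 8.30 and 8.19 untreated and 8.73, 8.71 and 8.71 with MEL. It rose by 0.49 (adjusted p = 0.00159) and was the only called gene of 18 p53 and GADD45 targets (5.56%, near the share of all genes). Of 25 genes of double-strand break repair MRE11, XRCC5 and CHEK2 fell and MDC1 (0.68) and H2AX (0.35) rose, the latter not without MEL replicate 1 (adjusted p = 0.174). Of 21 genes of excision and mismatch repair 5 fell and 1 rose (23.8% and 4.76%). Without MEL replicate 1 CHEK2 was not called either, and of the mitosis genes 2 were higher and 2 lower and of the excision repair genes 3 lower. In the BCL2 family BOK and BID fell, of 15 (13.3%), and none was called without MEL replicate 1.

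Lineage genes changed in both directions. HBZ, the embryonic zeta globin of this line, had levels of 12.27, 12.29 and 12.31 untreated and 11.55, 11.77 and 11.87 with MEL, and fell by 0.56 (adjusted p = 0.0004), while HBD rose by 0.43 and the blood group gene KEL rose by 0.39. Of 15 globin and red cell membrane genes 4 rose and 1 fell, and without MEL replicate 1 only HBZ was called. ZFPM1, the partner of GATA1, rose by 0.81, and GATA1 fell by 0.36 (adjusted p = 0.0846 without MEL replicate 1). GP6, the platelet collagen receptor, rose by 0.96 and VWF rose by 0.39. Of 21 genes of heme synthesis and iron 3 rose and 2 fell (14.3% and 9.52%, against 4.83% and 6.8% of all genes). None of them was called without MEL replicate 1. Among genes for damaged membranes S100A10 and S100A11 rose and ANXA7 and CHMP2B fell, with 4 of 23 higher and 3 lower. Of 28 lysosome genes 4 rose, among them CTSB, and 2 fell (14.3% and 7.14%). Of 16 genes of phospholipase A2 and eicosanoids 2 fell (12.5%). Without MEL replicate 1 the lysosome list kept CTSB higher and ATP6V1C1 lower, the phospholipase list had no call, and with the GAPDH covariate neither list had any. CHMP2B was not called without MEL replicate 1. Of 6 long noncoding RNAs of the nucleus TUG1 and OIP5-AS1 rose, the former not without MEL replicate 1.

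The response was set beside those of CALRwt and CALRdel52 cells, which share no arrays with it but share the estimate of the spread. MEL changed 8616 probe sets (15.8%) in the first and 6671 (12.2%) in the second. Of the 2301 genes called in CALRins5 cells 98.0% had the same sign in CALRwt cells, where 72.0% were also called, against 95.8% and 52.7% in CALRdel52 cells. These shares do not test a difference. The difference in response between CALRins5 and CALRwt cells passed for 0 of 54675 probe sets (0.0%) in limma. An unadjusted p under 0.05 was found for 2831, with 2734 given by chance, and limma with the trend and robust options called 7. In a single simulated set the test against CALRwt recovered 7% of differences of 0.5 and 69% of differences of 1 on the log2 scale. An absence of calls therefore does not show equal responses. The genes with the smallest p, none of which passed, were HMCN1 (difference 1.02, adjusted p = 0.244), OR3A1 (0.61, 0.274), PHLDA1 (0.86, 0.274), LINC00656 (0.87, 0.274) and MYDGF (−0.59, 0.454). For sterol synthesis 12 genes fell with CALRins5, 11 with CALRwt (10.5% of all genes fell) and 9 with CALRdel52 (8.03%), and no member passed the test of a different response. For ER chaperones 3, 11 (7.6% of all genes rose) and 7 (5.23%) rose, and no member passed that test either.

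Against CALRdel52 cells the response differed for 8 probe sets (0.0146%), among them the brightest of 6 genes. In the same single simulated set the test of this difference called more unchanged than changed probe sets, so single calls made by it are uncertain. The test against CALRwt called 1 unchanged probe set there, and how far these counts depend on the draw was not tested. HMCN1, an extracellular matrix protein, rose in CALRins5 cells, from 5.46, 5.22 and 5.44 to 6.41, 6.33 and 6.58. Its response did not pass the test within CALRdel52 cells (−0.13, adjusted p = 0.524) or CALRwt cells (0.04, 0.858). The difference between the CALRins5 and CALRdel52 responses was 1.20 (standard error 0.17, adjusted p = 0.0288). ROBO2, a guidance receptor, went from 4.34, 4.12 and 4.19 to 5.51, 5.43 and 5.51 in CALRins5 cells and had means of 4.60 and 4.72 in CALRdel52 cells (difference 1.14, adjusted p = 0.0363). The corresponding differences were 1.13 for CALB1 (adjusted p = 0.0288), 1.02 for LINC00656 (0.0396) and 0.99 for PHLDA1 (0.0363), a gene of a pleckstrin-homology protein. SCARB1, the receptor for high-density lipoprotein, went from 8.33, 8.20 and 8.20 to 7.09, 7.15 and 7.12 in CALRins5 cells, with a difference of −0.84 (adjusted p = 0.0363).

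For 5 of these genes, all but ROBO2, the means of the 3 vectors lay farther apart before MEL than with it. HMCN1 had untreated means of 5.37 in CALRins5, 5.81 in CALRwt and 6.52 in CALRdel52 cells, and means of 6.44, 5.85 and 6.39 with MEL. CALB1 had untreated means of 7.40, 8.10 and 8.47 in the same order and means of 9.04, 9.06 and 8.97 with MEL. SCARB1 had untreated means of 8.25, 7.67 and 7.39 and means of 7.12, 7.13 and 7.10 with MEL. LINC00656 had 6.22, 6.90 and 7.34 untreated and 7.67, 7.48 and 7.77 with MEL. PHLDA1, whose brightest probe set was not called within CALRins5 cells (0.20, adjusted p = 0.281), had 7.40, 8.26 and 8.14 untreated and 7.60, 7.60 and 7.35 with MEL. A dimmer PHLDA1 probe set was called higher in CALRins5 cells (0.66, adjusted p = 0.00419, and 0.025 without MEL replicate 1), and the remaining ones were not called. None of the 8 probe sets was called against CALRdel52 cells without MEL replicate 1, 2 or 3, without untreated replicate 2 or 3 of CALRins5, without untreated replicate 1 or MEL replicate 3 of CALRdel52, or with the GAPDH difference as a covariate. The number of probe sets called was 4 without untreated replicate 2 of CALRdel52 and 30 without untreated replicate 3 of CALRdel52.

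**Figure D3:**
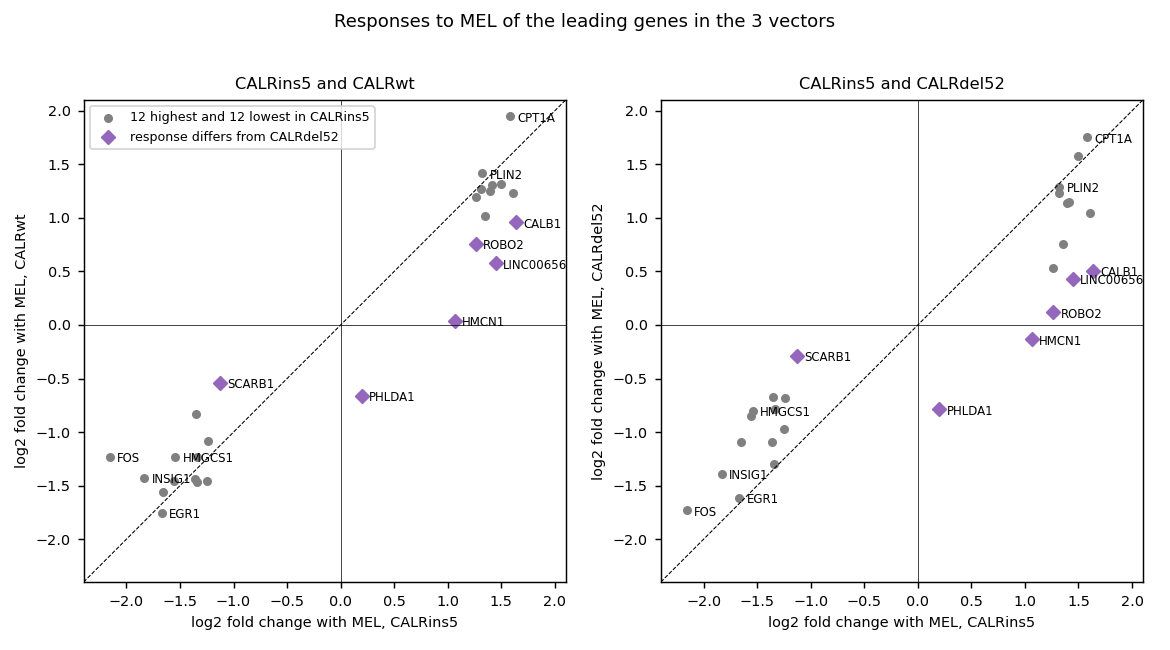
Log2 fold change with MEL in CALRins5 cells (x axis) against that in CALRwt cells (left, y axis) or CALRdel52 cells (right, y axis) for the 12 highest and 12 lowest genes of CALRins5 cells (grey circles) and the 6 genes whose response differed from that of CALRdel52 cells (purple diamonds); the dashed line marks equal responses. The grey genes were chosen in CALRins5 cells and share their sign in all 3 vectors, while HMCN1 and PHLDA1 lie on the other side of 0 in CALRdel52 cells.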

How the data were processed

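RNA of transduced K562 cells was labelled with the GeneChip 3' IVT Plus kit, per the labels (the study's supplement names another kit and array). The deposited values are the authors' log2 expression values on 54675 probe sets of the HG-U133 Plus array, made with RMA in Partek according to the submitters' processing notes, without a filter. The set of arrays that RMA took together is not given in these sources. RMA evens out the arrays, so a shift common to all genes is not seen.

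The values were used as deposited. The limma model (3.58.1, R 4.3.3, lmFit and eBayes) had 6 groups over 18 arrays, with two-sided tests, p-values adjusted by Benjamini-Hochberg over the 54675 probe sets and a limit of 0.05. Of the probe sets 41097 named 1 gene, 1801 several and 11777 none. A gene was read by its brightest probe set, the one with the highest mean over all arrays. Named were the 12 highest and 12 lowest called genes whose groups did not overlap, up to 4 called members of each list, the sterol synthesis genes, the genes the paper names, the called genes of each difference in response and, where fewer than 5 were called, the 5 with the smallest p. Some further members of the lists are named beside them, chosen after their values were seen. The members and lists were chosen with earlier results of these data known, so lists are given by counts and medians only. The tests were tried on a single simulated set with known changes. The number of arrays limits the precision. Alternatives were a replicate block, other normalizations, probe set filters, variance models and arrays in the model, the GAPDH and ACTB differences as covariates, and left-out arrays. Figures were drawn with matplotlib 3.10.9 and pandas 2.3.3 in Python 3.11.15.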

Additional observations from a re-analysis of the deposited data

Results flagged for a closer look

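The difference in response to MEL between CALRins5 and CALRdel52 cells, tested as an interaction in limma, passed for 6 genes. On the log2 scale it was 1.199 for HMCN1, 1.144 for ROBO2, 1.133 for CALB1, 1.019 for LINC00656, 0.9851 for PHLDA1 and −0.8411 for SCARB1. The count of probe sets behind these genes depended on single arrays, as given above.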

How the results depend on the processing

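The 5512 DEGs with MEL became 3496 with the 6 CALRins5 arrays alone, 1988 with these and the replicate number as a block, 1589 with the GAPDH covariate, 1599 with the ACTB covariate and 3341 without both arrays that stood apart, the last 2 chosen after seeing the data. Leaving out single arrays gave 2737 to 6026. The replicate numbers do not pair the samples (correlations of deviations −0.053, 0.021 and −0.065 in CALRins5), and with a replicate block over 18 arrays there were 5945 DEGs. Quantile normalization, centring, no moderation, trend and robust options, brighter probe sets and no cross-hybridising probe sets kept the count within 1.5 times. The difference from CALRwt, 0 probe sets, became 1 with either covariate, among probe sets above the median level and without both arrays that stood apart, 7 with trend and robust options, 710 at an unadjusted p under 0.01 without moderation, and 0 to 1 without single arrays. The difference from CALRdel52, 8 probe sets, became 0 with either covariate and without both arrays that stood apart, 33 without moderation, 19 above the median level, 13 with quantile normalization, 29 with trend and robust options, 1113 at an unadjusted p under 0.01 without moderation, and 0 to 30 without single arrays. EIF2AK3 turned to −0.071 with the ACTB covariate, −0.064 with the GAPDH covariate and −0.034 without both arrays that stood apart (−0.034 to 0.14 without single arrays), and NGFR to −0.080 with the ACTB covariate and −0.056 with the GAPDH covariate. Neither gene was called. Of 158 named and called genes 75 kept sign and call in all 18 alternatives, and none changed sign. The cause of these changes was not tested. Genes of low signal are limited by the arrays' background.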
